A study of Mus musculus with 24 samples.

Results

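The EGF family genes described here are 9 genes, taken by gene symbol from the 25229 genes of the count table. They comprise 6 ligands (Areg, Ereg, Hbegf, Tgfa, Btc and Nrg1) and 3 receptors (Egfr, Erbb2 and Erbb3). All 9 had enough reads to be tested. RNA sequencing was carried out on ID8 P53 KO cells, a mouse ovarian cancer line of C57BL/6 origin labelled as a Trp53 knockout, so every group, controls included, carried the P53 KO label. Cells were treated for 6 days with DMSO as the vehicle, with AU15330 at 2.5 µM, with cisplatin at 750 nM, or with both drugs (the combination). There were 6 libraries in each of the 4 groups, 24 in all. AU15330 is a PROTAC (a molecule that brings its target to the proteasome) against SMARCA4 and its paralog SMARCA2, ATPases of the SWI/SNF chromatin remodelling complex, and cisplatin is a DNA-damaging drug that the study used to induce senescence. The cisplatin concentration is that of the sample labels, whereas the methods of the study give 1 µM for these cells. The design asks how AU15330 alters gene expression in cells with and without this cisplatin treatment, and loss of SMARCA4 and loss of SMARCA2 cannot be told apart in it. The labels and methods read here do not say whether the replicates were separate cultures, so the p-values below measure the spread between these libraries only, which may be technical.

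EGF family ligands are made as membrane-anchored precursors that are released by metalloproteases such as ADAM17, and they act on the same or neighbouring cells. Areg, Tgfa and Egf bind EGFR, while Hbegf, Btc and Ereg bind both EGFR and ERBB4, and neuregulins such as Nrg1 bind ERBB3 and ERBB4. Ligand binding drives receptor pairing. ERBB2 has no known ligand and serves as the preferred partner of the others, and ERBB3 has little kinase activity of its own. The active receptors signal through RAS and MAP kinases and through PI3K and AKT. In ovarian cancers the family is known as a source of autocrine growth signals, and amphiregulin (Areg) and epiregulin (Ereg) are also known as secreted products of senescent cells.

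Of the ligand genes, 3 (Areg, Ereg and Btc) lie in a cluster on chromosome 5, where neighbours moved in opposite directions. The sequence before the start site is therefore shown for Areg and Btc. No window was at hand for Ereg, and that of the receptor gene Erbb2, on another chromosome, is shown as well. RefSeq windows (build GRCm38.p6) were at hand for 5 of the 9 members, namely Areg, Btc, Tgfa, Egfr and Erbb2. The 250 bases before the start site are printed 5′ to 3′ on the strand of the gene for Areg (chr5:91139349-91139598, plus strand), Btc (chr5:91402995-91403244, minus strand) and Erbb2 (chr11:98412234-98412483, plus strand). Capitals mark matches on either strand to the CRE half-site TGACG, which is the core of the element bound by CREB and ATF factors, and to the TATA box TATAAA.
Areg: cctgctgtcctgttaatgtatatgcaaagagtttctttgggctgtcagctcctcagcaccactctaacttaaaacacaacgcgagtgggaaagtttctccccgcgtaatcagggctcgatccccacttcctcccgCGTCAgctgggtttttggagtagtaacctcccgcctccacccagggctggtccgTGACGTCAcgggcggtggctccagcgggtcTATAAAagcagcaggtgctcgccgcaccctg
Btc: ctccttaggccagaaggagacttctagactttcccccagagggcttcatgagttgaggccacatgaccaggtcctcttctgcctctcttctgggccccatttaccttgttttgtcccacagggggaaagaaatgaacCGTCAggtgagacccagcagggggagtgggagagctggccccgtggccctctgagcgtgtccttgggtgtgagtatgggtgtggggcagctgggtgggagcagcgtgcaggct
Erbb2: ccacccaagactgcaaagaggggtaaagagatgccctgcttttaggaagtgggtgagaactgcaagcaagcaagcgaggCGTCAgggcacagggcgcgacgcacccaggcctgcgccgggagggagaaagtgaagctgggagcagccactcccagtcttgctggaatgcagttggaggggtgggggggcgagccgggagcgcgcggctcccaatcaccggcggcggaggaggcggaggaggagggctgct
The Areg window held 3 CRE half-sites, which began at positions -115, -61 and -58 relative to the start site, and a TATA box at -31. The last 2 half-sites overlap on opposite strands and together form a full CRE. A single half-site was present in the Btc window, at -113, and another in the Erbb2 window, at -171. None was found in the Tgfa and Egfr windows. The Tgfa window (chr6:86194972-86195221) reached past the start of the gene as placed below (chr6:86195038), so part of it lies within that gene. Of 32851 windows of the same length, 17.8% held TGACG and 12.4% held TATAAA. The AP-1 site TGANTCA, found in 6.75% of all windows, and the E-box CACGTG, found in 6.02%, were absent from the 5 members. The motif GGAATG bound by TEAD factors, present in 12.6% of windows, was found in Erbb2 alone of the 5, at -88. The GC box GGGCGG, present in 32.7% of windows, was found in Areg, Tgfa and Egfr. These matches describe letters and not bound sites, and half-sites occurred before a gene that rose with AU15330 (Areg) as well as before genes that fell (Btc and Erbb2, below).

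The libraries held 17592588 to 25260009 reads assigned to genes, and 3 counts, taken as the floor of detection, corresponded to 0.120 to 0.186 CPM. CPM here are counts scaled to a common library size over tested genes with edgeR's TMM factors, and the floor covers counting error only. For all 24 libraries, the most correlated library had received the same treatment. Smarca4 mRNA was at a mean of 245 CPM with DMSO, 387 with AU15330, 319 with cisplatin and 386 with the combination. Because AU15330 acts on the protein, these values do not check the treatment labels. Trp53 mRNA was detected in every library (18.7 to 42.9 CPM), and with no wild-type library these values do not test the genotype. Mki67, a marker of proliferating cells, was at a mean of 50.5 CPM with DMSO, 97.6 with AU15330, 333 with cisplatin and 317 with the combination, and its cisplatin libraries (249.9 to 375 CPM) did not overlap the DMSO libraries (30.2 to 83.2 CPM). Of the markers of ovarian surface epithelium and mesothelium, the tissue type of the line, Wt1 had mean levels of 614 to 980 CPM and Krt8 of 238 to 547 CPM over the 4 groups, others were much lower in the AU15330 groups (below), and Epcam had at most 2 counts in any library. The leukocyte marker Ptprc had at most 5 counts and Cd3e at most 2.

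**Figure D1:**
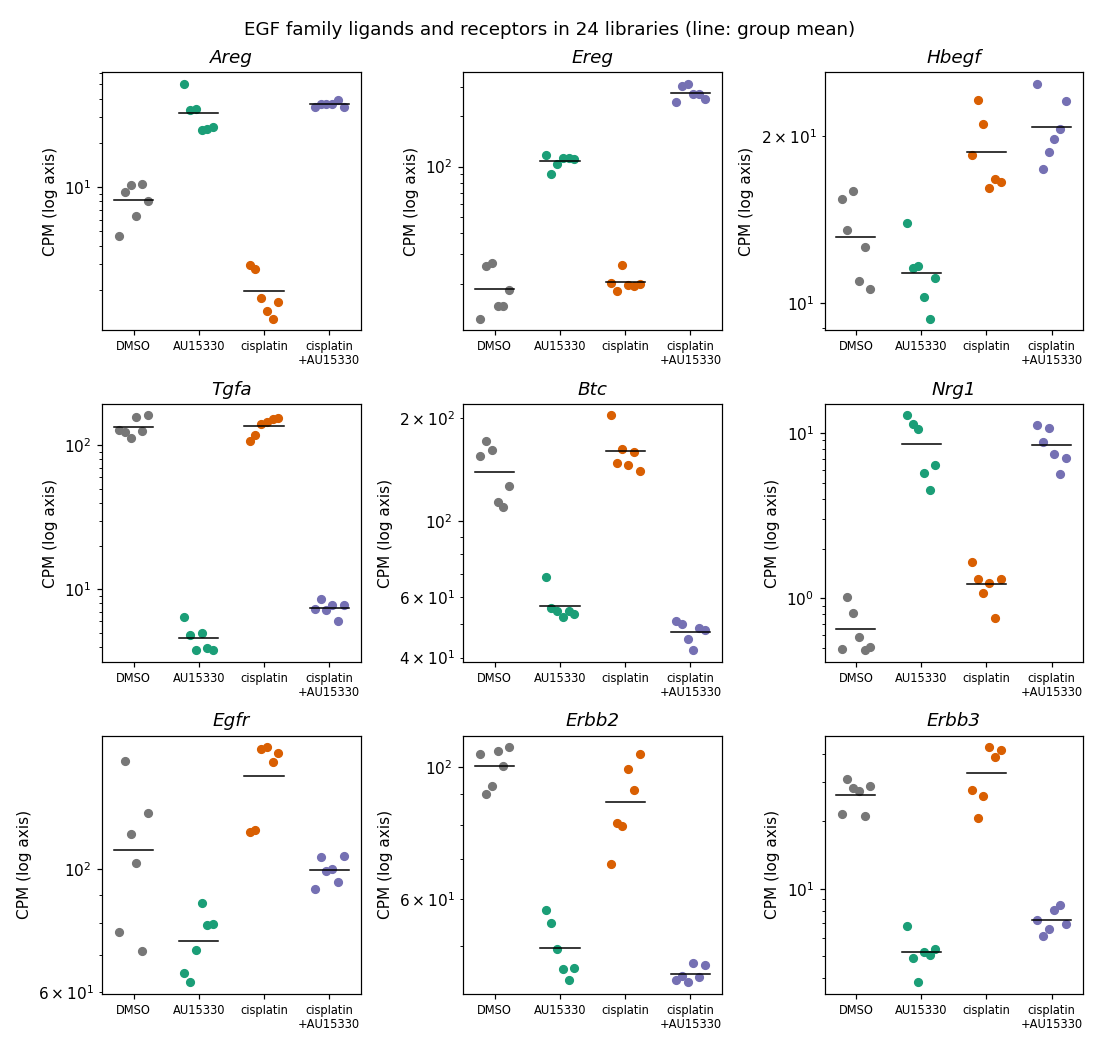
Level of each EGF family gene in each of the 24 libraries, in CPM on a logarithmic axis, with 6 points per treatment and a line at the group mean. Areg, Ereg and Nrg1 are high in both AU15330 groups, Tgfa, Btc, Erbb2 and Erbb3 are low in them, and Ereg is highest with the combination, at 242 to 313 CPM.

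Treatment with AU15330 divided the ligands into those that rose and those that fell, and lowered all 3 receptors. Relative to DMSO, 3 of the 9 members were higher (Areg, Ereg and Nrg1), where 36.2% of the 12941 tested genes were higher. A further 5 were lower (Tgfa, Btc, Egfr, Erbb2 and Erbb3), where 37.2% of all tested genes were lower, and Hbegf was not called. With total counts in place of TMM factors the same numbers of members were called, and the higher share of all calls was 58.6% in place of 49.3%. The median log2 fold change was -0.55 over the 9 members and -0.003 over all tested genes. With changes called in most of the transcriptome, these counts alone do not set the family apart, and the sizes of the changes are therefore given gene by gene.

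Areg encodes amphiregulin, a low-affinity EGFR ligand. Its level ranged from 4.64 to 10.4 CPM with DMSO (median 8.65) and from 24.6 to 50.6 CPM with AU15330 (median 29.6). All 6 treated libraries thus exceeded all 6 controls. The rise was 3.92-fold (log2 fold change 1.97, standard error 0.19, adjusted p = 9.16e-10, edgeR quasi-likelihood test with Benjamini-Hochberg adjustment over all tested genes). The library at 50.6 CPM, replicate 1, stood apart from the other 5, which reached 34.0 CPM, and without replicate 1 the log2 fold change was 1.66.

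Ereg, the epiregulin gene, rose further. Its levels were 12.4 to 26.4 CPM with DMSO (median 16.5) and 90.6 to 118 CPM with AU15330 (median 112). The groups were well apart, and the difference was 5.76-fold (log2 fold change 2.53, standard error 0.14, adjusted p = 1.90e-14). Nrg1, a neuregulin, was close to the floor with DMSO, at 8 to 21 counts per library or 0.485 to 1.02 CPM (median 0.547). With AU15330 it reached 93 to 283 counts, or 4.52 to 12.7 CPM (median 8.45). Replicates 1 to 3 (10.5 to 12.7 CPM) lay above replicates 4 to 6 (4.52 to 6.42 CPM). The same held for Areg, Hbegf and Erbb2, and the reverse for Egfr. Such splits were not particular to AU15330. With cisplatin, replicates 1 to 3 lay above replicates 4 to 6 for Areg and Hbegf. They lay below them for Tgfa, Erbb2 and Erbb3 (Erbb3 at 20.7 to 27.5 against 38.6 to 42.8 CPM). With DMSO they lay above for Hbegf and Btc (Btc at 155 to 171 against 110 to 127 CPM), and with the combination for Nrg1. What sets these replicates apart was not tested. The rise of Nrg1 over DMSO was the largest proportional rise among the members, at 12.9-fold (log2 fold change 3.69, standard error 0.28, adjusted p = 7.24e-12), although the level it reached was still below 13 CPM.

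Tgfa, which encodes transforming growth factor alpha, a high-affinity EGFR ligand, showed the largest change of all members. Its levels were 113 to 161 CPM with DMSO (median 126) and 3.76 to 6.44 CPM with AU15330 (median 4.36). No treated library came near a control, and the fall was 29.1-fold (log2 fold change -4.86, standard error 0.14, adjusted p = 2.08e-20). The transcript was not lost, since 72 to 143 counts per library remained. Btc, the betacellulin gene, went from 110 to 171 CPM (median 141) to 52.4 to 68.9 CPM (median 54.7), without overlap, a 2.46-fold decrease (log2 fold change -1.30, standard error 0.11, adjusted p = 3.24e-11). Hbegf, which encodes a heparin-binding ligand, was at 10.6 to 15.9 CPM with DMSO (median 13.1) and 9.37 to 13.9 CPM with AU15330 (median 11.35). These ranges overlapped (log2 difference -0.22, 95% interval -0.47 to 0.03, adjusted p = 0.111).

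The receptors were affected unequally. Erbb3 was at 21.1 to 30.9 CPM with DMSO (median 27.8) and at 3.82 to 6.84 CPM with AU15330 (median 5.12), and the groups did not overlap. It fell 5.07-fold (log2 fold change -2.34, standard error 0.17, adjusted p = 1.70e-12). Erbb2 was at 90.0 to 108 CPM (median 103) against 44.0 to 57.5 CPM (median 47.8), again without overlap, a 2.02-fold decrease (log2 fold change -1.02, standard error 0.09, adjusted p = 6.13e-11). Egfr varied widely among DMSO libraries, from 71.1 to 157 CPM (median 109), and overlapped the AU15330 libraries at 62.5 to 86.9 CPM (median 75.5). Its decrease of 1.46-fold (log2 fold change -0.55, standard error 0.14, adjusted p = 0.00126) was called, but not when a fold change above 1.5 was required (adjusted p = 0.678).

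Epithelial and mesothelial markers moved in the same comparison. Of 13 listed, 12 were in the table and 11 were tested, and with AU15330 10 of the 11 were lower and 1 was higher. Their summed level was 3534.5 to 5351 CPM in DMSO libraries and 1020 to 1153 CPM in AU15330 libraries. Krt19, at a mean of 1783 CPM with DMSO, fell by 7.99 on the log2 scale. Mean levels went from 646 to 122 CPM for Krt18, from 524 to 117 CPM for Msln, from 45.3 to 0.494 CPM for Upk3b and from 27.8 to 1.18 CPM for Upk1b, and Epcam was at 0 in all AU15330 libraries. The part of this shift in the fall of Tgfa, Btc and the receptors was not tested. In bulk RNA, fewer cells expressing a gene and less of its RNA per cell cannot be told apart. The immune marker Cd68 was higher (11.8 to 34.8 CPM in the means), while Ptprc, Cd3e, Itgam and Nkg7 had at most 5 counts in any library. Among endothelial markers Pecam1 fell from a mean of 3.60 to 0.458 CPM, and Kdr and Cdh5 had at most 3 counts. Among the 5 fibroblast markers 4 were tested, of which 3 rose and 1 (Col1a1) fell, with sums of 227 to 641 CPM with DMSO and 111 to 174 CPM with AU15330.

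**Figure D2:**
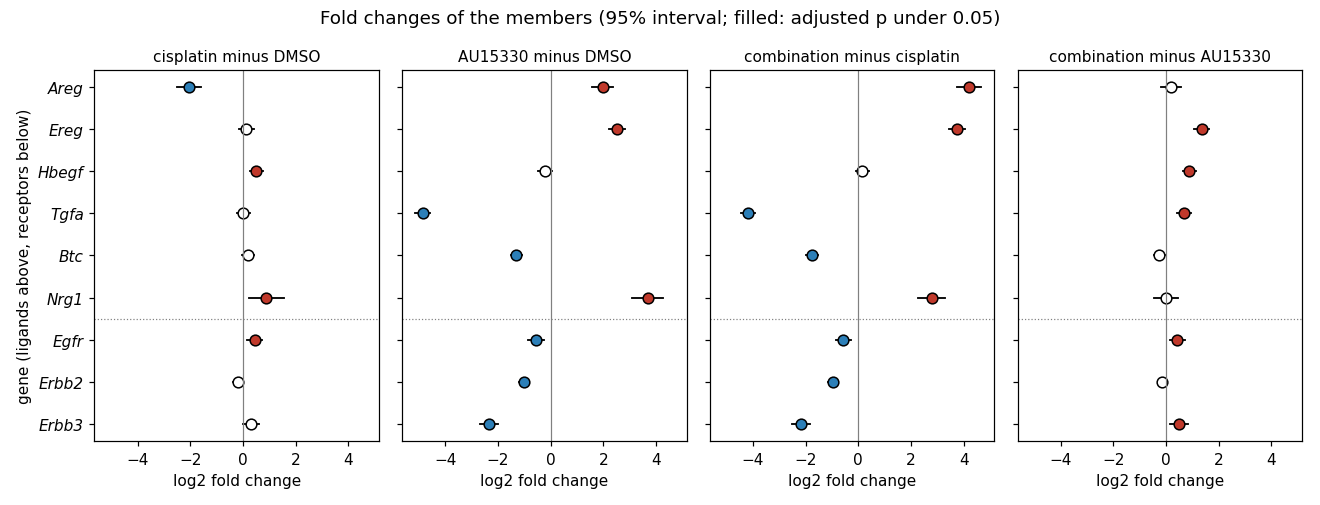
Log2 fold change of each member in 4 comparisons, with ligands above the dotted line and receptors below it. Bars are 95% intervals and filled points passed an adjusted p of 0.05 (red higher, blue lower). The panels for AU15330 against DMSO and for the combination against cisplatin each show 3 higher and 5 lower members, with Tgfa at -4.86 and -4.20.

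Cisplatin alone lowered Areg and raised 3 other members by smaller amounts. Relative to DMSO, 3 members were higher (Hbegf, Nrg1 and Egfr), where 26.0% of all tested genes were higher, and 1 was lower (Areg), where 25.7% were lower. The median log2 fold change of the 9 members was 0.20. With total counts in place of TMM factors, the share of all calls that were higher went from 50.2% to 61.1%. Cell type markers moved as well, with 8 of 11 tested epithelial and mesothelial markers higher (sums of 4284 to 4968 CPM, within the DMSO range), 3 of 4 fibroblast markers higher and 1 lower (sums of 365 to 449 CPM), and Pecam1 higher (from 3.60 to 10.2 CPM in the means). Their part in the members' changes was not tested.

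Areg fell to 1.28 to 2.96 CPM with cisplatin (median 1.70, 32 to 66 counts per library), below every DMSO library. The decrease was 4.17-fold (log2 fold change -2.06, standard error 0.22, adjusted p = 2.64e-08). Its neighbour Ereg did not share it. At 18.1 to 25.9 CPM with cisplatin (median 19.9), Ereg overlapped the controls (log2 difference 0.13, 95% interval -0.16 to 0.42, adjusted p = 0.451). Hbegf was at 16.2 to 23.2 CPM (median 17.6), above all controls, a 1.42-fold rise (log2 fold change 0.51, standard error 0.12, adjusted p = 0.000954).

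Levels of Tgfa with cisplatin were 107 to 155 CPM (median 143), which overlapped the controls (log2 difference 0.02, 95% interval -0.21 to 0.25, adjusted p = 0.896). Btc at 140 to 204 CPM (median 154) also overlapped (log2 difference 0.20, 95% interval -0.02 to 0.41, adjusted p = 0.119). Nrg1 remained low, at 19 to 37 counts or 0.759 to 1.66 CPM (median 1.28), and its called difference of 1.86-fold (adjusted p = 0.0214) did not pass without replicate 1 (adjusted p = 0.0780), replicate 4 (0.0571) or replicate 6 (0.0730).

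Among the receptors, Egfr was at 117 to 166 CPM with cisplatin (median 160), above DMSO (log2 fold change 0.44, standard error 0.14, adjusted p = 0.0107). The groups overlapped, and the call was lost without replicate 4 (adjusted p = 0.0571) or replicate 5 (0.0727). Erbb2 at 68.6 to 105 CPM (median 86.0) had a log2 difference of -0.20 (95% interval -0.37 to -0.02, adjusted p = 0.0519), and Erbb3 at 20.7 to 42.8 CPM (median 33.1) one of 0.32 (95% interval 0.01 to 0.63, adjusted p = 0.0768). Neither passed the threshold, and both overlapped the controls. Each was split by replicate number. Erbb3 was at 20.7 to 27.5 CPM in replicates 1 to 3 and at 38.6 to 42.8 CPM in replicates 4 to 6. The latter lay above every DMSO library (up to 30.9 CPM). Erbb2 in replicates 1 to 3 (68.6 to 80.6 CPM) lay below every DMSO library (at least 90.0 CPM), and in replicates 4 to 6 (91.5 to 105 CPM) within their range. What sets these replicates apart was not tested. The number of members called was 2 without replicate 4 and 1 (Areg) when a fold change above 1.5 was required, but 6 with total counts (of all genes tested in each fit, 5944, 1789 and 6506 were called, against 6689), which added Btc (adjusted p = 0.0235) and Erbb3 (0.0286). Erbb3 also passed without replicate 2 (adjusted p = 0.0109) or 3 (0.0328), Btc without replicate 2 (0.0431), and Erbb2 without replicate 6 (0.0332) or without the low-count filter (0.0355).

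In cisplatin-treated cells, AU15330 moved the same members in the direction given above for DMSO-treated cells. Relative to cisplatin alone, Areg, Ereg and Nrg1 were higher with the combination, 3 of 9 members where 35.4% of all tested genes were higher, and Tgfa, Btc, Egfr, Erbb2 and Erbb3 were lower, 5 of 9 where 32.7% were lower. This comparison shares no library with that of AU15330 and DMSO. The members' median was -0.57 on the log2 scale, against 0.04 for all tested genes.

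Areg reached 34.9 to 39.3 CPM with the combination (median 36.8), 18.6-fold above cisplatin alone (log2 fold change 4.22, standard error 0.22, adjusted p = 4.86e-15). Ereg reached 242 to 313 CPM (median 271), its highest level in any treatment. It was 13.4-fold above cisplatin alone (log2 fold change 3.75, standard error 0.15, adjusted p = 2.28e-17). Nrg1 was at 5.61 to 11.2 CPM (median 8.16), 6.89-fold higher (log2 fold change 2.79, standard error 0.25, adjusted p = 3.01e-10). For none of these ligands did the combination and cisplatin libraries overlap. The share of all tested genes without such overlap was not counted.

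With the combination, Tgfa was at 6.04 to 8.51 CPM (median 7.52), 18.4-fold below cisplatin alone (log2 fold change -4.20, standard error 0.13, adjusted p = 2.92e-19). Btc was at 42.0 to 51.0 CPM (median 48.6), 3.36-fold lower (log2 fold change -1.75, standard error 0.11, adjusted p = 1.34e-13). Hbegf at 17.5 to 24.9 CPM (median 20.2) overlapped cisplatin alone (log2 difference 0.15, 95% interval -0.09 to 0.39, adjusted p = 0.261). The receptors Erbb3, Erbb2 and Egfr were at 6.19 to 8.43 CPM (median 7.12), 43.5 to 47.0 CPM (median 44.5) and 92.1 to 106 CPM (median 99.8). None overlapped cisplatin alone, again without a count over all tested genes. Their decreases were 4.54-fold for Erbb3 (adjusted p = 5.10e-12), 1.94-fold for Erbb2 (adjusted p = 2.46e-10) and 1.48-fold for Egfr (adjusted p = 0.000990). Egfr did not pass when a fold change above 1.5 was required (adjusted p = 0.696). The epithelial and mesothelial markers were lower here too, in 10 of the 11 tested, the endothelial marker Pecam1 was lower (from 10.2 to 0.748 CPM in the means) and the immune marker Cd68 higher (from 9.25 to 33.7 CPM). Of 4 fibroblast markers 1 was called higher and 1 lower, with sums of 194 to 294 CPM against 365 to 449 with cisplatin, and the part of all these markers was not tested.

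Adding cisplatin to AU15330 raised a subset of the family. Relative to AU15330 alone, 5 members were higher with the combination (Ereg, Hbegf, Tgfa, Egfr and Erbb3), where 22.2% of all tested genes were higher, and 0 were lower, where 19.5% were lower. In edgeR 1 member, Btc, was lower at an unadjusted p under 0.05 (log2 difference -0.25, 95% interval -0.47 to -0.03, adjusted p = 0.0612), and it passed in DESeq2 (adjusted p = 0.0498) and, in edgeR, with DESeq2 size factors (0.0497) or without the low-count filter (0.0472). Ereg rose 2.56-fold (log2 fold change 1.35, standard error 0.14, adjusted p = 1.60e-08) and Hbegf 1.83-fold (0.87, standard error 0.12, adjusted p = 2.14e-06), both without overlap. Tgfa rose 1.61-fold from its low level (adjusted p = 0.000265) with slight overlap between the groups. In the same comparison 6 of 11 epithelial and mesothelial markers were higher (sums of 1020 to 1153 CPM with AU15330 and 1226 to 1408 with the combination). So were 3 of 4 fibroblast markers (111 to 174 and 194 to 294 CPM) and the endothelial marker Pecam1 (0.458 to 0.748 CPM in the means). The part of these markers was not tested. Areg did not follow Ereg (log2 difference 0.19, 95% interval -0.18 to 0.55, adjusted p = 0.429).

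Egfr was 1.34-fold higher without overlap (log2 fold change 0.43, standard error 0.14, adjusted p = 0.0182). Erbb3 was 1.39-fold higher with overlap (0.48, standard error 0.17, adjusted p = 0.0251). Neither call held in every fit that left out 1 replicate, although the log2 fold changes stayed at 0.36 to 0.47 for Egfr and 0.41 to 0.54 for Erbb3. Egfr was lost without replicate 3 (adjusted p = 0.0524) or 6 (0.0506), and Erbb3 without replicate 3 (0.0646), 4 (0.0741) or 5 (0.0901), so that 3 members were called without replicate 3. Nrg1 had a log2 difference of -0.01 (95% interval -0.46 to 0.44, adjusted p = 0.977) and Erbb2 one of -0.14 (95% interval -0.32 to 0.04, adjusted p = 0.198).

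Whether AU15330 acted differently in cisplatin-treated and DMSO-treated cells was tested as an interaction, the log2 fold change of the combination over cisplatin minus that of AU15330 over DMSO. It was positive for 3 members (Areg, Ereg and Tgfa), where 17.9% of all tested genes were positive, and negative for 1 (Btc), where 15.8% were negative. With total counts in place of TMM factors, the positive share of all calls was 41.7% in place of 53.0%. Areg had the largest difference, 2.25 (standard error 0.29, adjusted p = 1.41e-06), made up of the fall with cisplatin alone and levels in the AU15330 groups that were not called different. For Ereg it was 1.22 (standard error 0.20, adjusted p = 3.02e-05), here through a higher level with both drugs. Tgfa, at 0.66 (standard error 0.18, adjusted p = 0.00531), fell less in cisplatin-treated cells, and Btc, at -0.45 (standard error 0.15, adjusted p = 0.0222), fell more. The Btc call was lost without replicate 4 (adjusted p = 0.0631) or 5 (0.0717). Nrg1 (-0.90, adjusted p = 0.0728), Hbegf (0.37, adjusted p = 0.0950), Erbb3 (0.16, adjusted p = 0.618), Erbb2 (0.06, adjusted p = 0.742) and Egfr (-0.02, adjusted p = 0.958) were not called. Nrg1 passed in DESeq2 (-0.94, adjusted p = 0.0468) and without replicate 5 (0.0454), and Hbegf without replicate 2 (0.0479).

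To compare genes with each other, CPM values were divided by the length of each gene's merged exons in GENCODE M21. On this scale (CPM per kb), Btc and Tgfa were the leading ligand transcripts without AU15330. With DMSO, Btc made up 46.7% ± 5.5 of the sum of the 6 ligands (SD, n = 6), Tgfa 31.9% ± 6.2, Areg 10.3% ± 3.0 and Ereg 6.80% ± 1.6. Shares of Areg (5.97% to 14.7%) and Ereg (4.69% to 8.98%) overlapped, while those of Btc and Tgfa did not. With cisplatin, Btc (52.6% ± 4.8) and Tgfa (31.5% ± 5.2) again led, and Areg was at 2.43% ± 0.86.

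With AU15330 the order changed. Ereg (38.4% ± 5.5) and Areg (37.7% ± 5.8), whose shares overlapped, were followed by Btc (18.2% ± 0.89), and Tgfa was at 1.03% ± 0.15. With the combination, Ereg alone made up 58.6% ± 2.6, ahead of Areg at 26.5% ± 1.4 and Btc at 9.29% ± 0.92, and these 3 shares did not overlap. Hbegf stayed between 3.40% and 5.79% in the group means and Nrg1 at or below 1.17%. The summed ligand level was 65.7 ± 6.0 CPM per kb with DMSO, 69.1 ± 11 with AU15330, 67.0 ± 4.0 with cisplatin and 114 ± 6.7 with the combination. The first 3 groups overlapped, and the combination (106 to 122) was above every other library (up to 90.4).

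**Figure D3:**
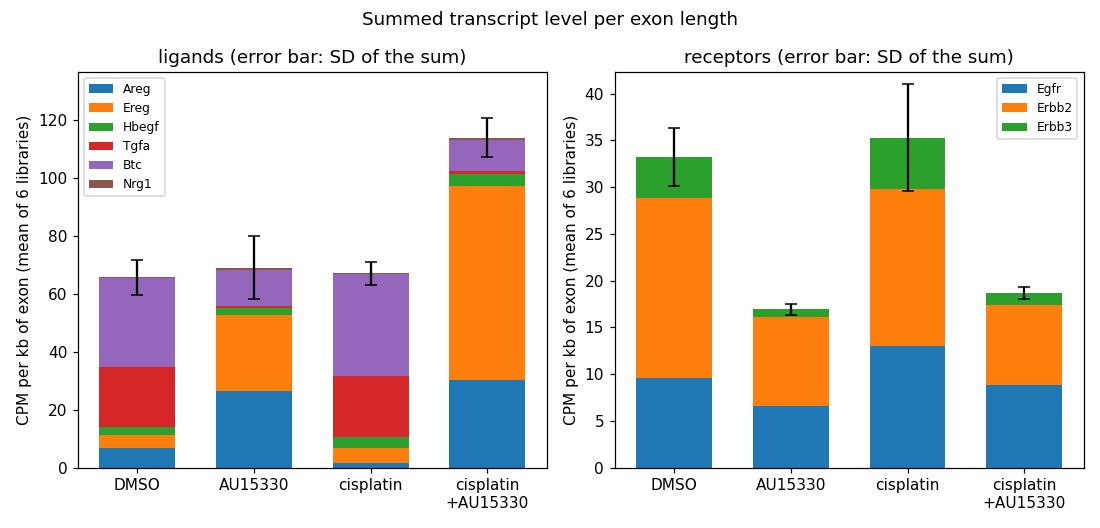
Stacked mean levels of the ligands (left) and receptors (right), in CPM per kb of merged exon, for 6 libraries per treatment, with error bars showing the SD of the sum. Btc and Tgfa fill most of the ligand bar with DMSO and cisplatin and Ereg and Areg with AU15330, and the receptor bar is at 16.9 and 18.6 in the AU15330 groups against 33.2 and 35.3 without it.

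Among the receptors, Erbb2 had the highest share with DMSO (58.5% ± 7.2) and Egfr the next (28.4% ± 6.3). Erbb3 made up 13.1% ± 1.1 with DMSO and 15.3% ± 2.5 with cisplatin, but 5.09% ± 0.80 with AU15330 and 6.48% ± 0.81 with the combination. With both drugs, Egfr (47.2% ± 1.5) and Erbb2 (46.4% ± 0.78) overlapped. The sum of the receptors was 33.2 ± 3.1 CPM per kb with DMSO and 35.3 ± 5.7 with cisplatin, and 16.9 ± 0.60 with AU15330 and 18.6 ± 0.64 with the combination. The sums with AU15330 (at most 19.4) lay below all sums without it (at least 28.1).

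Of the ligand genes, Areg, Ereg and Btc share a region on chromosome 5 with Epgn, which encodes epigen. In RefSeq (GRCm38.p6) Epgn lies at chr5:91027517-91035212, Ereg at chr5:91074617-91093649, Areg at chr5:91139599-91148432 and Btc at chr5:91357261-91402994, within 375.5 kb. Ereg and Areg are 45.95 kb apart, and 208.8 kb separate Areg from Btc. Along this stretch the response to AU15330 changed sign, with rises of Ereg and Areg and a fall of Btc in both AU15330 comparisons. Epgn did not pass the filter on low counts. It had 6 to 19 counts per library with DMSO (61 in sum), 0 to 4 with AU15330 (16), 5 to 19 with cisplatin (54) and 0 to 5 with the combination (7). The genes on either side, looked up after the values of the cluster had been seen, were Mthfd2l beyond Epgn, with log2 fold changes of 0.86 (AU15330 over DMSO) and 0.61 (combination over cisplatin), and Parm1 beyond Btc, with -1.81 and -1.87. The other members lie elsewhere, Tgfa at chr6:86195038-86275744, Nrg1 at chr8:31807452-32891609, Erbb3 at chr10:128567523-128589635, Egfr at chr11:16752203-16913907 and Erbb2 at chr11:98412484-98437716.

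**Figure D4:**
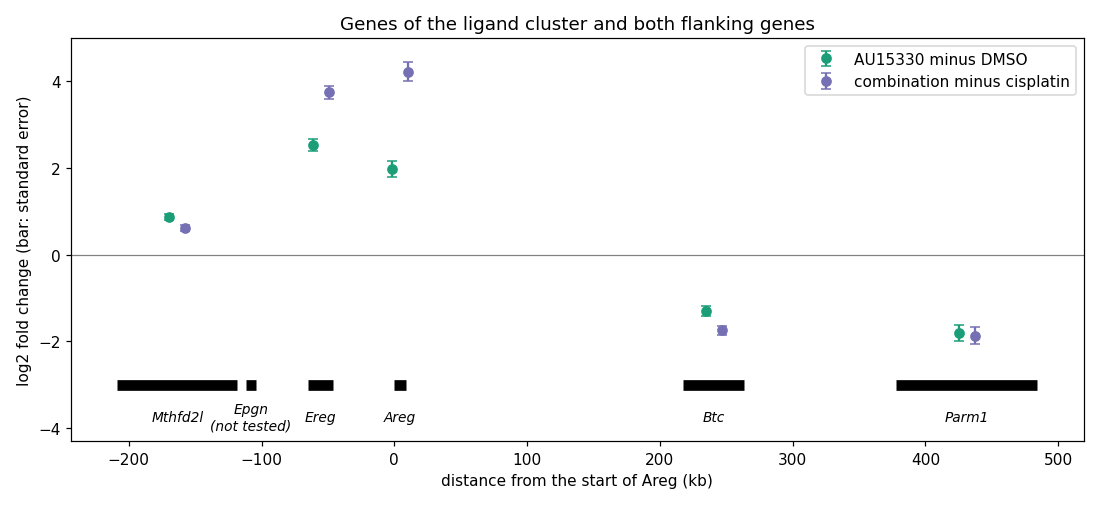
Log2 fold change (points, with standard errors) of the genes of the ligand cluster and both flanking genes against distance from the start of Areg in kb. Black bars show the extent of each gene to scale, and Epgn was not tested. Mthfd2l, Ereg and Areg lie above 0 and Btc and Parm1 below it in both comparisons with AU15330.

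The remaining genes of the family were at low levels or not measurable, although Nrg2 was above some members. Its mean was above that of Nrg1 with DMSO (5.01 against 0.653 CPM). With cisplatin (8.10 CPM) it was above Nrg1 (1.23 CPM) and Areg (1.98 CPM). Erbb4, the fourth receptor, had at most 3 counts in any library and Nrg3 at most 2. Egf was at a mean of 1.09 CPM with DMSO and 2.19 CPM with AU15330 (log2 fold change 0.98, adjusted p = 8.12e-05), and it rose likewise with the combination over cisplatin (0.98, adjusted p = 9.91e-05). Nrg2 fell with AU15330 from 5.01 to 2.19 CPM in the means (-1.20, adjusted p = 0.000910), but the groups overlapped, with DMSO replicates 2 and 3 at 1.71 and 1.79 CPM and the other DMSO libraries at 6.09 to 7.21. It also fell with the combination over cisplatin, from 8.10 to 4.23 CPM (-0.94, adjusted p = 0.00426). Its difference between cisplatin and DMSO (0.69, adjusted p = 0.0372) was lost without replicate 2 (adjusted p = 0.0748), 3 (0.0572), 4 (0.0563) or 5 (0.0606). Nrg4 had 10 to 58 counts per library with DMSO and 2 to 12 with AU15330 (-2.39, adjusted p = 5.86e-05). It was also lower with cisplatin alone (-1.25, adjusted p = 0.0133), a call lost without replicate 2 (0.0679), and the combination over cisplatin was not called (-0.33, adjusted p = 0.536).

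Genes that release the ligands, carry the signal and respond to it were counted from 4 lists, each beside the share of all tested genes. The shedding list held 15 proteases, their partners and inhibitors, of which 11 were tested. With AU15330, 5 of them fell (37.2% of all tested genes did), among them Furin (-1.46), a proprotein convertase that activates ADAM proteases, Adam15 (-1.07) and the inactive rhomboid Rhbdf1 (-0.92), while Adam9 (0.51) and Pcsk7 (0.50) rose, 2 where 36.2% of all genes rose. The median log2 fold change was -0.69. Relative to cisplatin, 8 of the 11 were lower with the combination (background 32.7%), among them the metalloprotease inhibitor Timp3 (-1.19) and Rhbdf2 (-1.10), a partner needed for ADAM17 maturation, and Adam9 (0.38) was higher, 1 of 11 (background 35.4%). With cisplatin alone, 6 were higher (background 26.0%), including Timp3 (2.74, from 0.485 to 3.30 CPM) and Rhbdf2 (0.66), and 2 were lower (background 25.7%), Furin (-0.48) and Adam15 (-0.21). The rhomboid protease gene Rhbdl2 was higher with cisplatin than with DMSO and lower with the combination than with cisplatin. Its means were 1.15 CPM with cisplatin and 0.0606 with DMSO and 0.0309 with the combination, both below the floor of 3 counts, and no fold is given.

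The 26 genes for receptor adaptors and the kinase cascade were all tested and moved both ways, in shares near those of all genes. With AU15330 9 rose (background 36.2%), led by Stat3 (1.18), Shc1 (0.96), the adaptor that couples the receptors to RAS, and Gab1 (0.83). Another 10 fell (background 37.2%), led by Mapk3 (-1.18), which encodes ERK1, Pik3r1 (-0.95) and Plcg1 (-0.60). With the combination over cisplatin 10 rose and 10 fell (backgrounds 35.4% and 32.7%), led by Shc1 (1.30) and Mapk3 (-1.08). The medians were -0.02 and 0.03.

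Most transcripts on a list of genes that rise when the MAP kinase pathway is active were lower with AU15330, both over DMSO and over cisplatin. Of the 10 genes on this list, 9 fell with AU15330 (background 37.2%), among them the phosphatase gene Dusp4 (-3.18), the feedback inhibitor Spry4 (-3.11) and the transcription factor Etv4 (-3.06), and only Spry2 rose (0.19). Their median was -1.95. With the combination over cisplatin 8 fell (background 32.7%), including Spry4 (-2.48), Dusp4 (-2.11) and Phlda1 (-2.04), and Spry2 rose (0.62), with a median of -0.92. Cisplatin alone raised 5 (background 26.0%), led by cyclin D1, Ccnd1 (1.75), and Spry4 (1.17), and lowered Spry2 (-0.35). Over AU15330 alone, the combination raised 8 (background 22.2%), with Etv4 (2.59), Ccnd1 (1.89) and Spry4 (1.79) in front. The interaction was positive for 7 (background 17.9%) and negative for 1 (Epha4, -0.77, background 15.8%).

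Of 26 genes for receptor feedback and turnover, which share Spry2, Spry4, Dusp4 and Dusp6 with the list above, 7 rose and 13 fell with AU15330 (backgrounds 36.2% and 37.2%), and 9 rose and 13 fell with the combination over cisplatin (35.4% and 32.7%). Those that rose included Cd2ap (1.16 and 0.70), an adaptor in receptor endocytosis, and Cblc, a ubiquitin ligase gene of the CBL family that was below the floor with DMSO (mean 0.0320 CPM) and at 0.648 CPM with AU15330, and those that fell included Dusp5 (-2.36 with AU15330) and Spry1 (-1.58 with the combination). Errfi1, an inhibitor of the EGFR kinase, was lower with cisplatin (-0.51) and with AU15330 (-1.28, from 69.7 to 28.7 CPM in the means), but not called for the combination over cisplatin (0.08, adjusted p = 0.366). It had the largest positive interaction of this list (2.56-fold, adjusted p = 2.41e-10).

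**Figure D5:**
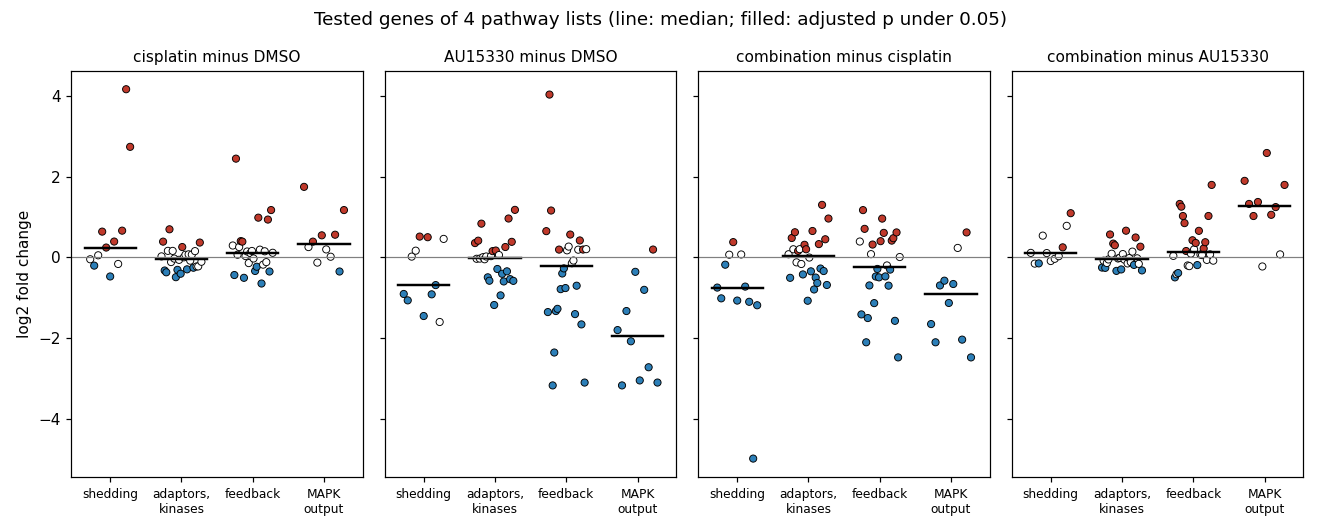
Log2 fold change of every tested gene of 4 lists of the EGF receptor pathway in 4 comparisons, with a line at the median of each list and filled points for adjusted p under 0.05 (red higher, blue lower). Spry2, Spry4, Dusp4 and Dusp6 appear in both the feedback and the MAPK output lists. The median of the MAPK output genes is -1.95 for AU15330 over DMSO and 1.28 for the combination over AU15330.

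For each member, the tested genes whose log CPM followed it most closely over the 24 libraries were looked up. These were Gcnt1 (Pearson r = 0.995) and Ak7 (0.994) for Tgfa, Sec14l1 (0.991) for Erbb3, Perp (0.986) for Btc, Syn1 (0.985) for Ereg, Llgl1 (0.981) for Erbb2, Srxn1 (0.977) for Areg, Pwwp3b (0.972) for Nrg1, Tpst1 (0.942) for Hbegf and Bmp2k (0.935) for Egfr. The libraries share their 4 treatments, so these values describe similar patterns over treatments.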

How the data were processed

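Polyadenylated RNA was made into directional libraries and sequenced as single-end 70 bp reads. Alignment by the authors used STAR (version 2.7.1a, build mm10, per the submitters' processing notes, which also name DESeq2 1.36.0). The deposited values are raw counts of reads, not normalized, for 25229 gene symbols. Which counting tool was used, its use of strand and the annotation are not given in the sources used here, so reads of antisense or overlapping genes may not have been separated. All 48 columns matched a library by label, 0 were left unused, and both lanes of a library were summed. Groups were taken from the labels.

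Counts were tested in R 4.3.3 with edgeR 4.0.16 (TMM factors, filterByExpr, which kept 12941 genes, group means of the 24 libraries, quasi-likelihood F test, 20 residual degrees of freedom), with Benjamini-Hochberg adjustment over all tested genes and a threshold of 0.05. A prior count of 2 was added for log CPM. The procedure was tested on simulated data. Alternatives were DESeq2 size factors, total counts, DESeq2 1.42.0, no low-count filter, the replicate number as a block, a required fold change above 1.5 (glmTreat), and leaving out each replicate number. The 9 members and all gene lists were chosen with earlier results of these data known. All members are named, together with the other EGF family genes, and some of the 3 called genes of each list with the largest change in each direction and comparison, as well as the most similar genes of each member. The pathway lists, counted together with the 6 other EGF family genes, hold 79 genes, of which 72 were tested. Totals of 17592588 to 25260009 counts set the precision. Exon lengths came from GENCODE M21 and positions and sequences from RefSeq, GRCm38.p6.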

Additional observations from a re-analysis of the deposited data

Results flagged for a closer look

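In 52 groups of 6 libraries searched (the 9 members and 4 other EGF family genes in 4 treatments), 6 held a library far from the others, where chance gives about 1 in 20 groups, or 2.6. The measure is the gap to the nearest library divided by the range of the group, set against Dixon's 95% critical value for 6 libraries. Replicate 1 of AU15330 was high for Areg (50.6 CPM against 24.6 to 34.0 in the others, 0.638) and for Btc (68.9 against 52.4 to 55.8, 0.793), and replicate 1 of cisplatin was high for Btc (204 against 140 to 162, 0.648). Replicate 3 of cisplatin was high for Ereg (25.9 against 18.1 to 20.2, 0.726) and for Epgn (0.859 against 0.200 to 0.372, 0.739). Replicate 4 of the combination was high for Epgn (0.227 against 0 to 0.0479, 0.789), which rests on 5 counts. Without replicate 1, AU15330 over DMSO gave log2 fold changes of 1.66 for Areg and -1.35 for Btc, both still called. Without replicate 3, Ereg was still not called for cisplatin over DMSO (0.21, adjusted p = 0.224).

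For 5 genes of the family the effect of AU15330 depended on cisplatin, by the interaction in the edgeR fit, where 17.9% of all tested genes had a positive and 15.8% a negative interaction. The differences in log2 fold change were 2.25 for Areg (adjusted p = 1.41e-06), 1.22 for Ereg (adjusted p = 3.02e-05), 0.66 for Tgfa (adjusted p = 0.00531), -0.45 for Btc (adjusted p = 0.0222, lost without replicate 4 or 5) and 2.06 for Nrg4 (adjusted p = 0.0190). The Nrg4 difference rests on 2 to 58 counts per library and was lost without replicate 2 (1.52, adjusted p = 0.119) or 6 (2.08, adjusted p = 0.0516).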

How the results depend on the processing

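Log2 fold changes of the 9 members were recomputed 540 times in all, and 500 stayed on their side of the threshold, 18 newly passed it, 22 no longer passed it and 0 changed direction among called values. Small differences that were not called changed sign in some fits, for Tgfa (cisplatin over DMSO), Nrg1 (combination over AU15330) and Egfr and Erbb2 (interaction). For AU15330 over DMSO and the combination over cisplatin, 8 members were called in every fit except with a fold change above 1.5 required, where Egfr was lost. That requirement gave 1 member for cisplatin over DMSO, 2 for the combination over AU15330 and 2 for the interaction (against 4, 5 and 4). It gave 7, 28, 24, 11 and 5 genes of the pathway lists in the order cisplatin over DMSO, AU15330 over DMSO, combination over cisplatin, combination over AU15330 and interaction (against 36, 55, 58, 36 and 27), and 1789, 4657, 3803, 842 and 926 of all tested genes (against 6689, 9497, 8813, 5394 and 4361). Leaving out each replicate number in turn gave 2 to 6, 8 to 8, 8 to 8, 3 to 5 and 3 to 5 members and 31 to 38, 52 to 56, 55 to 58, 28 to 36 and 21 to 28 list genes (5824 to 6826, 8983 to 9685, 8213 to 8958, 4501 to 5623 and 3265 to 4627 of all tested genes), with 2 members without replicate 4 for cisplatin and 3 without replicate 3 for the combination over AU15330. Total counts moved the median of all genes to 0.13 for AU15330 over DMSO and 0.10 for the combination over cisplatin. Same-numbered libraries of different groups correlated in their deviations by 0.145 on average (-0.133 to 0.483, 23 of 36 pairs over 0.1). The mean was -0.027 for libraries of different number, and 10 of 24 libraries correlated best with their own number. Libraries of the same number thus shared some variation. The labels do not say what a number stands for, and the main fit did not pair the samples by it. With the replicate number as a block, 6, 8, 8, 6 and 6 members were called, and 38, 58, 60, 38 and 33 list genes, where calls over all tested genes rose as well, to 7354, 9966, 9286, 6185 and 5303. The block added Btc and Erbb2 for cisplatin (adjusted p = 0.0360 and 0.0482), Btc for the combination over AU15330 (0.0167), and Hbegf and Nrg1 for the interaction (0.0462 and 0.00728). At these depths a gene under 3 counts, 0.120 to 0.186 CPM, could not be measured, which applies to Nrg3 in every library and to Erbb4 in all but 1, where it had 3 counts, and Epgn was under it in most libraries of the combination.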
